A study of Mus musculus with 12 samples.

Results

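The genes examined encode core proteins of the spliceosome and the SR proteins that direct it. They were chosen by symbol, as Srsf, Prpf or Lsm followed by a number (for Lsm, 1 to 8) or any name beginning with Snrp, Sf3a, Sf3b or U2af, and 56 of the 56691 genes in the count table were taken. The names of 3 processed pseudogenes also matched and were left out. One of these, Snrpert, received 2069 to 5217 reads per library, and the other 2 received none. The 56 genes comprised 8 proteins of the Sm ring, 8 LSM proteins, 4 of the proteins particular to U1 or U2, 9 subunits of SF3A and SF3B, 3 U2AF proteins, 13 PRPF proteins and 11 SR proteins.

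The spliceosome removes introns from nuclear pre-mRNA. U1 pairs with the start of the intron, U2AF and then U2 with its SF3A and SF3B subunits recognise the branch site and the end of the intron, and the U4, U5 and U6 particle joins before catalysis, while SR proteins bind exons and recruit these factors. Each small nuclear RNA except U6 is held in a ring of Sm proteins that the SMN complex assembles in the cytoplasm, U6 carries a nuclear LSM ring, and a second LSM ring, which differs in 1 subunit, promotes decapping and decay of mRNA in the cytoplasm. A fully grown oocyte stores these mRNAs while it transcribes little, and part of its stored mRNA is removed during maturation.

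Oocytes of C57BL/6 females aged 3 weeks, primed with PMSG, were sequenced as wild type (WT) and as Alkbh5-/- (KO), each at the germinal vesicle (GV), germinal vesicle breakdown (GVBD) and metaphase II (MII) stages. Alkbh5 encodes a demethylase that removes N6-methyladenosine from RNA, and the KO is a whole-body deletion of its first exon with the start codon, made with CRISPR-Cas9, so that oocytes also grew in follicles without Alkbh5. Each of the 6 groups had 2 libraries, each from a pool of denuded oocytes, taken at collection for GV and after culture for GVBD and MII, and the study describes that most KO oocytes failed to mature. The sources used here do not say whether KO oocytes were sorted by stage for the pools, so that in KO GVBD and MII libraries a difference of stage and one of genotype cannot be told apart. A figure legend of the study calls the 2 libraries of a group biologically independent samples. Neither it nor the labels says that they came from separate animals, and p-values measure only the spread between them.

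Counts per library, in units of 1e6, totalled 28.6 to 40.2, and 221927 to 838409 reads fell on ERCC spike-in RNA, while the 56 genes took 0.898% to 1.24% of endogenous counts. Alkbh5 received 5355 to 10181 reads in WT libraries and 54 to 143 in KO libraries. All 12 oocyte markers examined exceeded 3 counts in every library and summed to at least 25439 CPM, reads scaled to a library total of 1e6, whereas 16 granulosa and cumulus markers summed to 44.9 to 88.5 CPM, highest in KO MII replicate 2. Values below are ERCC-scaled counts, the reads of a gene divided by the spike-in reads of its library relative to the mean over libraries. The methods and a figure legend of the study give different numbers of oocytes per pool, so fewer oocytes and less RNA per oocyte cannot be told apart on this scale.

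At the GV stage in WT, stored levels of the 56 mRNAs spanned a wide range. Per kilobase of exon, the most abundant were Lsm3, a shared subunit of both LSM rings, at 51939 ± 4285 (SD, n = 2), the Sm protein gene Snrpd1 at 29507 ± 5183, Snrpe at 17681 ± 2773 and Snrpg at 16804 ± 2959. The ranges of Lsm3 and Snrpd1 did not overlap, and neither did those of Snrpd1 and Snrpe, whereas those of Snrpe and Snrpg did. The mRNAs of SR proteins were stored at lower levels per kilobase, from 562 ± 102 for Srsf5 down to 3.86 ± 0.40 for Srsf12. The mRNAs for proteins of 1 ring were not stored in like amounts: Snrpb, which encodes SmB, stood at 48.9 ± 5.5 per kilobase, beside 3277 ± 429 for Snrpd3 and the higher levels of Snrpd1, Snrpd2, Snrpe and Snrpg. Only uniquely mapped reads were counted, so genes with near-identical copies, such as Snrpb and Snrpn or Sm genes with processed pseudogenes, may be undercounted.

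**Figure D1:**
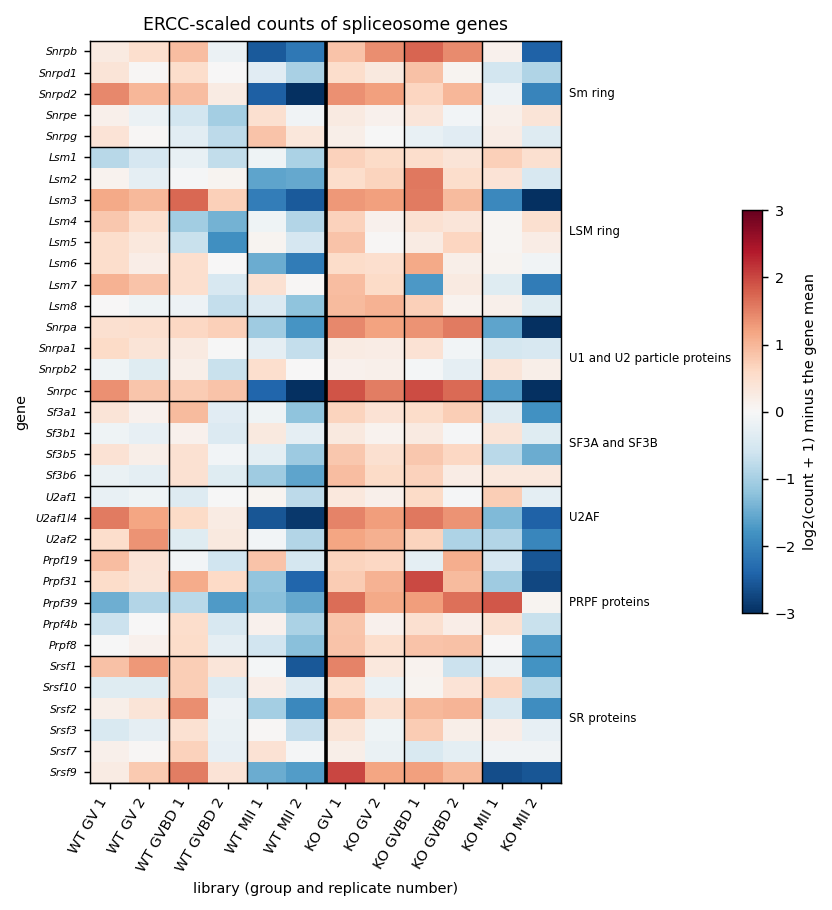
ERCC-scaled counts of 35 of the 56 spliceosome genes (vertical axis, grouped by role), those whose values in each library are described or that lead a comparison, in the 12 libraries (horizontal axis), as log2(count + 1) minus the gene's mean, so that red lies above the gene's own mean and blue below it. Prpf39 is red or near its mean in KO and blue in WT. At MII Snrpd2, Snrpc, Lsm3 and U2af1l4 turn blue, except that Snrpd2 in KO MII replicate 1 stays near its mean.

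To learn whether loss of ALKBH5 altered the stored spliceosome mRNAs, KO was compared with WT at each stage and over all stages. Prpf39 mRNA was about 6 times as abundant in KO as in WT, and Lsm1 mRNA about 2 times, with all stages in 1 model. No other of the 56 genes was called. A gene was called when its adjusted p by edgeR with Benjamini-Hochberg correction over all tested genes fell under 0.05 with a log2 fold change of at least 1 in size. Over all stages 2 of 56 members passed, beside 1.26% of all 22004 genes tested, both higher in KO.

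Prpf39 (ENSMUSG00000035597, chr12:65036333-65063386, plus strand) encodes a protein that accompanies U1 and takes part in the choice of alternative splice sites. It had ERCC-scaled counts of 363 and 549 (GV), 575 and 313 (GVBD) and 424 and 348 (MII) in WT, and of 3237 and 2235 (GV), 2407 and 3165 (GVBD) and 3690 and 1064 (MII) in KO. The lowest KO library lay above the highest WT library. Over all stages the log2 fold change was 2.62 ± 0.31 (SE), a fold of 6.14, with an adjusted p of 0.00148. Stage by stage it was 2.59 ± 0.31 (adjusted p = 0.0638) for GV, 2.65 ± 0.56 (adjusted p = 0.0116) for GVBD and 2.62 ± 0.88 (adjusted p = 0.158) for MII, and it passed the threshold only at GVBD, where 1 of 55 members tested was called beside 2.54% of all genes. The call at GVBD was lost when WT GVBD replicate 1, WT GVBD replicate 2 or KO GVBD replicate 2 was left out (log2 fold change 2.28 to 3.15), and also under TMM scaling (2.44, adjusted p = 0.0765), median-of-ratios scaling and a model of all 12 libraries. The value at MII ran from 1.46 to 3.26 with each library left out, lowest without KO MII replicate 1. The call over all stages held without any single library (2.35 to 2.78) and under TMM scaling (2.31, adjusted p = 8.38e-05).

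The exons of Prpf39 share 599 bases with Fkbp3, a gene on the opposite strand, which is 5.01% of their length, and strand use in counting is not given in the sources used here. Fkbp3 received 455 and 379 reads in WT GV and 421 and 487 in KO GV, and over all stages its log2 fold change was 0.16 ± 0.31 (adjusted p = 0.823). Its reads thus did not rise with those of Prpf39. The promoter of Prpf39 is shown because this gene had the largest genotype difference among the members called. The sequence is from RefSeq on GRCm38.p6, chr12:65036084-65036383, plus strand, from 250 bases before the annotated start to 50 after it. Capitals mark GGGCGG, the core of a GC box, and CACGTG, an E-box, which were searched on both strands together with CCAAT, which was not found.
Prpf39 promoter: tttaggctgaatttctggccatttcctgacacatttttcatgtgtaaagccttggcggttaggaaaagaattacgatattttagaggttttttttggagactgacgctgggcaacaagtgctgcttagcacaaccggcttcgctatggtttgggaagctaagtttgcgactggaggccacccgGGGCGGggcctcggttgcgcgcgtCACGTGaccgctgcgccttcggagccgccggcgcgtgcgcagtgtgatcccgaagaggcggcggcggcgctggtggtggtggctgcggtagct
The GGGCGG motif stood in 35.7% of all 32851 promoters of that length and CACGTG in 7.15%. Of the 56 members, 47 had at least 1 promoter in the table, 61 promoters in all, of which 38 held GGGCGG and 6 held CACGTG.

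Lsm1 (ENSMUSG00000037296, chr8:25785288-25803975, plus strand) encodes the subunit that distinguishes the cytoplasmic LSM ring, which acts in mRNA decapping, from the nuclear ring. It had ERCC-scaled counts of 744 and 936 (GV), 1148 and 794 (GVBD) and 1220 and 689 (MII) in WT, and of 2147 and 1988 (GV), 1921 and 1746 (GVBD) and 2198 and 1874 (MII) in KO. Every KO library exceeded every WT library. Such separation of all libraries in this direction was found for 2 of 56 members, Prpf39 and Lsm1, beside 1.09% of all genes tested. The log2 fold change of Lsm1 over all stages was 1.10 ± 0.22 (adjusted p = 0.0335), and it was lost from the calls when any of 8 of the 12 libraries was left out (adjusted p up to 0.098) and under TMM scaling (0.89, adjusted p = 0.0118).

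**Figure D2:**
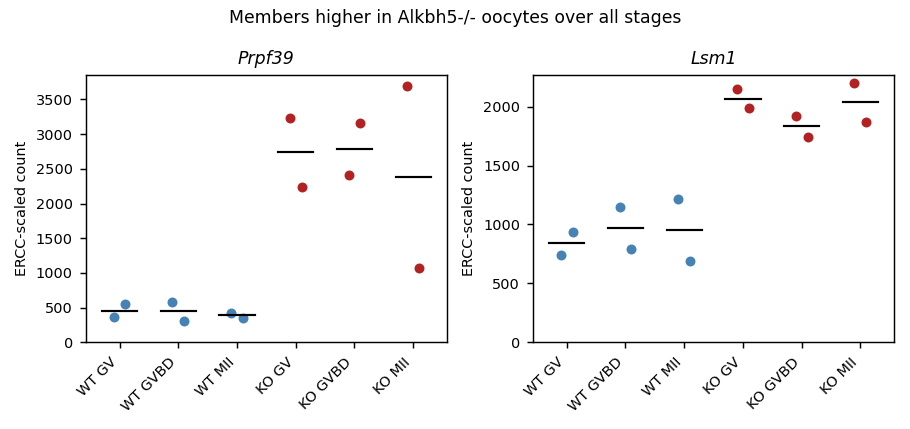
ERCC-scaled counts (vertical axes, starting at 0) of Prpf39 and Lsm1 in the 6 groups of genotype and stage (horizontal axes). Points are libraries, blue for WT and red for KO, and bars are means of 2 libraries. Every KO point lies above every WT point in both panels, and KO MII replicate 2 is the lowest KO library for Prpf39.

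At GV, 0 of 55 members tested were called by edgeR, beside 0.0977% of all genes, while 13 had an unadjusted p under 0.05, beside 17.9% of all genes, and the DESeq2 Wald test called 4, beside 3.42%. The smallest p-values belonged to Prpf39, Lsm1 and Sf3b6. Lsm1 differed by 1.30 ± 0.22 (adjusted p = 0.121) and Sf3b6, whose product contacts the branch region, by 1.003 ± 0.19 (adjusted p = 0.131). Sf3b6 had ERCC-scaled counts of 3241 and 3050 (GV), 5144 and 2882 (GVBD) and 1769 and 1236 (MII) in WT, and of 7095 and 5520 (GV), 6041 and 4337 (GVBD) and 4674 and 4667 (MII) in KO. Both KO libraries lay above both WT libraries at GV and at MII, but the groups overlapped at GVBD. Of the 55 members, 43 had a log2 fold change above 0 at GV and their median was 0.38, near the median of 0.36 over all genes, 72.7% of which were above 0.

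At GVBD, 49 of 55 members lay above 0 (89.1%, beside 60.7% of all genes), with a median log2 fold change of 0.33 against 0.23 over all genes. All 13 PRPF genes, all 9 SF3A and SF3B genes and all 8 Sm genes had values above 0, but Prpf39 alone was called. The LSM genes ranged from −0.49 for Lsm7 to 1.64 for Lsm4, a shared ring subunit. Lsm4 had ERCC-scaled counts of 253 and 197 in WT GVBD and 727 and 674 in KO GVBD (log2 fold change 1.64 ± 0.57 (adjusted p = 0.145)). Lsm5, also in both rings, had 5427 and 2399 in WT and 10225 and 13491 in KO (1.60 ± 0.54 (adjusted p = 0.132)). The KO libraries were higher for both genes without overlap. With TMM scaling, which sets most genes equal between libraries, the members' median at GVBD was 0.05 and 32 lay above 0. With at least 10 counts in every library it was 0.30, beside 0.31 over all genes. The members' median ran from 0.18 to 0.70 with each library left out.

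At MII, 0 of 55 members were called by edgeR, beside 0.803% of all genes, with 4 at an unadjusted p under 0.05, beside 7.32%, and 1, Prpf39, called by DESeq2, beside 1.97%. The members' median was 0.08 and that of all genes 0.30, and 31 members were above 0. The members' median ran from −0.54 without KO MII replicate 1 to 0.61 without WT MII replicate 1, so its direction rested on single libraries. Besides Prpf39 the smallest p-values were those of Snrpd2, at 2.01 ± 0.81 (adjusted p = 0.34), and Lsm6, at 1.76 ± 0.75 (adjusted p = 0.415), 2 ring genes whose WT counts were low at this stage, as described below. The value of Snrpd2 was 0.82 without KO MII replicate 1 and 2.65 without KO MII replicate 2. WT MII replicate 2 and KO MII replicate 2 held less endogenous RNA per spike-in than the other library of their group, at 47.0 and 54.7 endogenous reads per ERCC read against 73.3 and 87.9, and replicates diverged at this stage.

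**Figure D3:**
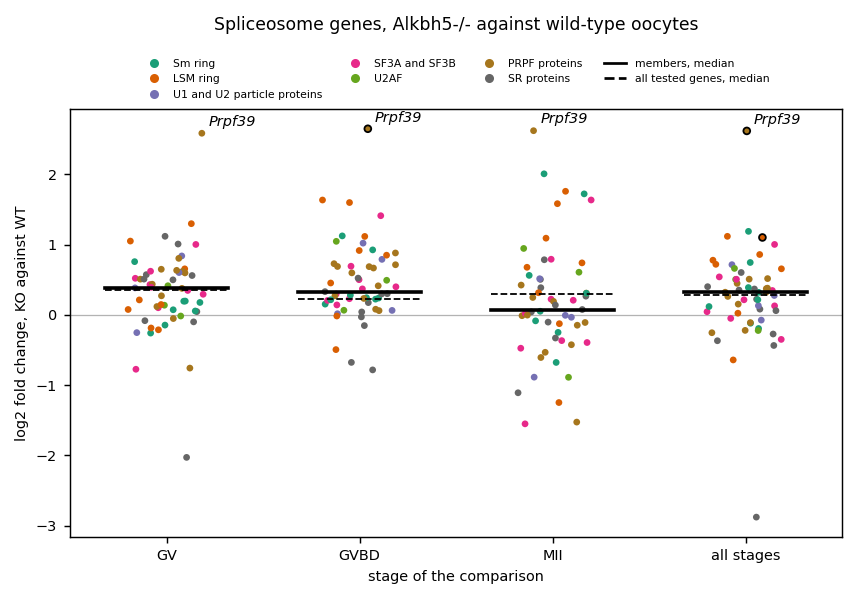
Log2 fold change of KO against WT (vertical axis) for each tested spliceosome gene at GV, GVBD, MII and over all stages (horizontal axis). Points are genes coloured by role, black outlines mark called genes, solid lines are members' medians and dashed lines medians of all tested genes. Prpf39 lies at 2.59 to 2.65 in all 4 columns, and the members' median is 0.38 at GV and 0.08 at MII, where it ran from −0.54 to 0.61 with each library left out.

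To follow the stored mRNAs through maturation, MII was compared with GV in each genotype. In WT, Snrpd2, Snrpc, Lsm3 and U2af1l4 fell to under 10% of the GV level, although the reads of U2af1l4 cannot be separated from those of an overlapping gene. Snrpe and Snrpg, of the same ring as Snrpd2, and Snrpb2, of U2, stood at 116% to 144% of it and were not called. Of the other Sm genes, Snrpb was called lower, at 14.4%, and the rest stood at 55.4% to 134% without a call. In WT, 14 of 56 members fell and 0 rose, 25% beside 30.9% of all 18816 genes called, nearly all of them lower (5747 of 5821). In KO, 4 of 55 fell and 0 rose, beside 3.28% of all genes. On the ERCC scale the median log2 fold change was −0.83 in WT over the members and −1.06 over all genes, and −0.74 and −1.17 in KO. With each library left out the members' median ran from −1.19 to −0.54 in WT and from −1.36 to −0.43 in KO.

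The count in WT rested on few libraries. It was 4 without WT GV replicate 1 (beside 15.3% of all genes), 4 without WT GV replicate 2 (15.2%), 20 without WT MII replicate 1 (30.4%) and 9 without WT MII replicate 2 (16.4%). Snrpd2, Snrpc, Lsm3 and U2af1l4 were called in each of these fits, and the other calls were lost without either WT GV library. In KO the count was 1 without KO GV replicate 1 (0.165%), 1 without KO GV replicate 2 (0.282%), 31 without KO MII replicate 1 (59.7%) and 12 without KO MII replicate 2 (22%), and Lsm3 was called in each. Scaling changed the direction of many members that were not called. With TMM scaling the members' median was 0.08 in WT and 0.49 in KO, beside −0.14 in both over all genes, and members above 0 went from 17 to 31 in WT and from 8 to 32 in KO. In WT 12 members were called higher and 7 lower in place of 0 and 14, beside 1593 and 3053 of all 18816 genes (24.7% called). In KO 0 were higher and 5 lower, beside 224 and 727 of all 18777 genes (5.06% called).

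The members' changes from GV to MII were alike in the 2 genotypes as a description, with Pearson's r of 0.78 and Spearman's rho of 0.79 over the 55 genes tested in both, beside 0.53 and 0.65 over 17513 genes. These are correlations across genes of the same libraries, which are not independent replicates and share each genotype's spike-in scaling. Spearman's rho of the WT change was 0.02 with exon length and 0.05 with the WT GV level per kilobase, over 56 genes. The difference between genotypes was tested directly as an interaction, and 0 of 56 members were called, beside 0 of 20807 genes (0%) by edgeR. At an unadjusted p under 0.05 there were 2 of 56 members, beside 1197 of all genes (5.75%). DESeq2 called 0 members, beside 0.74% of all genes.

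**Figure D4:**
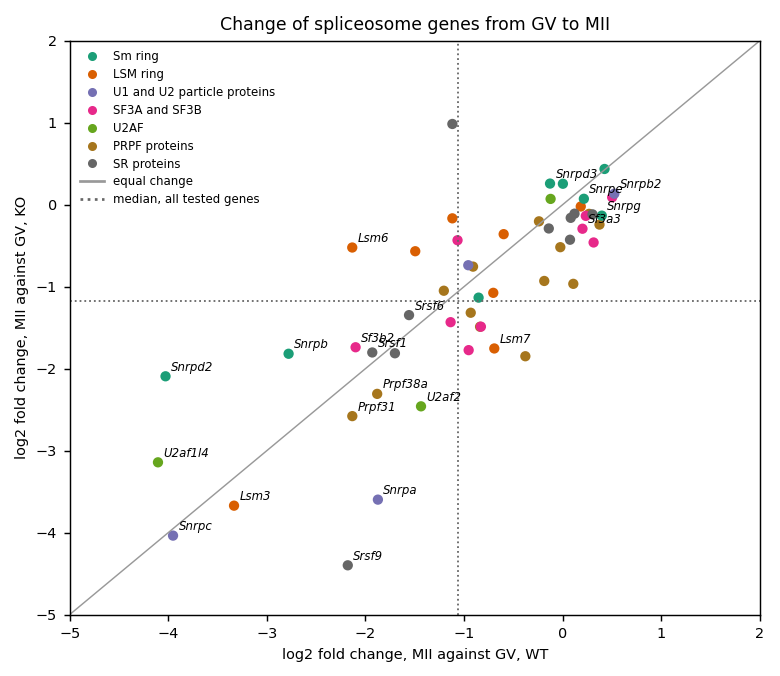
Log2 fold change from GV to MII in WT (horizontal axis) and KO (vertical axis) for 55 spliceosome genes tested in both, coloured by role. The grey line marks equal change and dotted lines the medians of all tested genes, −1.06 in WT and −1.17 in KO; Snrpc, Lsm3 and U2af1l4 lie far down in both, and Snrpe, Snrpg and Snrpb2 lie near 0.

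Within the Sm ring, the ring that holds U1, U2, U4 and U5 RNA, 2 of 8 genes fell in WT, beside 30.9% of all genes called. The others, none of them called, stood at 55.4% to 134% of their GV level in WT. Snrpd2 (ENSMUSG00000040824, chr7:19149722-19153542, plus strand), which encodes SmD2, had ERCC-scaled counts of 25417 and 18796 (GV), 17845 and 11092 (GVBD) and 1730 and 980 (MII) in WT, and of 24317 and 22220 (GV), 14797 and 18818 (GVBD) and 8511 and 2394 (MII) in KO. The MII libraries lay under all GV and GVBD libraries in both genotypes, and both KO MII libraries lay above both WT MII libraries. The log2 fold change from GV to MII was −4.03 ± 0.52 (adjusted p = 4.02e-13) in WT, which left 6.13% of the GV level, and −2.09 ± 0.66 (adjusted p = 0.0913) in KO, which left 23.4%. The interaction was 1.93 ± 0.81 (adjusted p = 0.781) and ran from 0.75 without KO MII replicate 1 (adjusted p = 0.503) to 2.58 without KO MII replicate 2 (adjusted p = 0.0498), where Snrpd2 was the 1 member called in it. The KO change ran from −3.28 to −1.45 without the same libraries, and was called in both.

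Snrpb, which encodes SmB, fell by 2.78 on the log2 scale in WT (−2.78 ± 0.91 (adjusted p = 0.00983)). It had ERCC-scaled counts of 89 and 104 (GV), 139 and 64.6 (GVBD) and 12 and 15.9 (MII) in WT, and of 133 and 194 (GV), 248 and 196 (GVBD) and 80.1 and 12.9 (MII) in KO. Among WT libraries those of MII were lowest, with KO MII replicate 2 between them. The KO MII libraries differed from each other by more than those of WT GV or of WT MII. Its reads were few, 15 to 178 per library, and the call was lost without any 1 of the 4 libraries.

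Snrpd1, which encodes SmD1, had ERCC-scaled counts of 68069 and 53029 (GV), 74920 and 52235 (GVBD) and 40744 and 26326 (MII) in WT, and of 75178 and 63700 (GV), 96071 and 54645 (GVBD) and 35496 and 27783 (MII) in KO. It changed by −0.85 ± 0.43 (adjusted p = 0.121) in WT and −1.13 ± 0.46 (adjusted p = 0.164) in KO, with MII below GV in both genotypes but no call. Snrpe, for SmE, had counts of 26949 and 21567 (GV), 16465 and 12044 (GVBD) and 33788 and 22546 (MII) in WT, and of 29191 and 26381 (GV), 31168 and 22998 (GVBD) and 26764 and 31649 (MII) in KO. Its libraries overlapped between GV and MII, and the log2 fold change was 0.22 ± 0.44 (adjusted p = 0.782) in WT and 0.07 ± 0.47 (adjusted p = 0.944) in KO. Snrpg, for SmG, had counts of 29668 and 23098 (GV), 18216 and 13133 (GVBD) and 40855 and 28655 (MII) in WT, and of 25371 and 22373 (GV), 19290 and 17760 (GVBD) and 26299 and 17216 (MII) in KO. It changed by 0.40 ± 0.44 (adjusted p = 0.558) in WT and −0.13 ± 0.50 (adjusted p = 0.894) in KO, so that Snrpd2 and Snrpg, stored at 22107 and 26383 mean ERCC-scaled counts in WT GV, stood at 1355 and 34755 at MII.

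Of the remaining Sm genes, Snrpd3 (SmD3) changed by −0.13 ± 0.46 in WT and 0.26 ± 0.50 in KO, Snrpf (SmF) by 0.43 ± 0.53 and 0.44 ± 0.70, and Snrpn, an imprinted relative of Snrpb, by 0.00 ± 0.54 and 0.26 ± 0.69. None of the 3 passed the test. Relative to all endogenous RNA, by TMM scaling, Snrpe (1.13), Snrpg (1.32) and Snrpf (1.40) were called higher at WT MII and Snrpd2 (−3.14) was called lower. Exons of Snrpf are shared with Ccdc38 on the opposite strand over 65.9% of their length, although Ccdc38 received a mean of 74.1 reads.

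**Figure D5:**
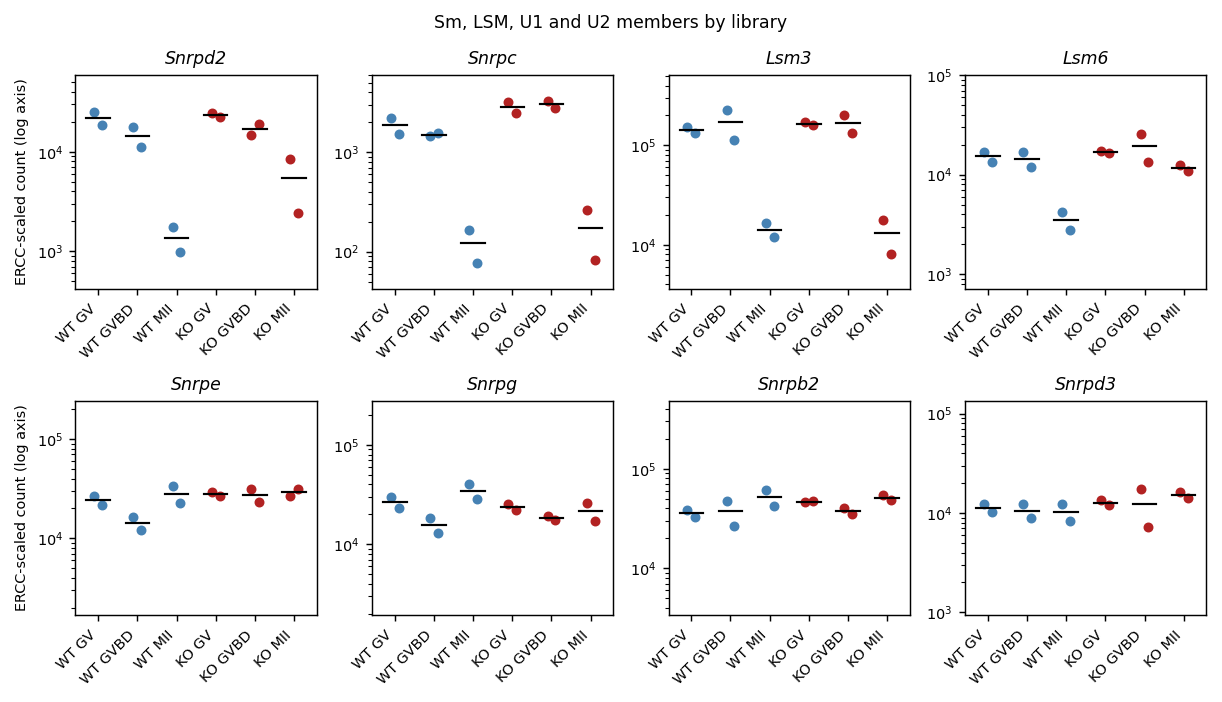
ERCC-scaled counts (vertical axes, logarithmic, each panel spanning the same fold) of 8 genes in the 6 groups (horizontal axes). Points are libraries, blue for WT and red for KO, and bars are means of 2 libraries. The upper row shows genes called lower at MII in WT, of which Lsm6 kept 69.6% of its GV level in KO, and no gene of the lower row was called in either genotype.

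The LSM genes also differed in their change. In WT 3 of 8 fell, beside 30.9% of all genes called. These were Lsm2, Lsm3 and Lsm6, all of which belong to both the nuclear and the cytoplasmic ring. In KO Lsm3 alone was called, beside 3.28% of all genes, although all 8 had log2 fold changes below 0 and Lsm7 stood at −1.75 ± 0.64 (adjusted p = 0.133). Lsm3 (ENSMUSG00000034192, chr6:91515928-91522625, plus strand) had ERCC-scaled counts of 151329 and 134646 (GV), 227026 and 113867 (GVBD) and 16442 and 11930 (MII) in WT, and of 170719 and 161034 (GV), 203477 and 133921 (GVBD) and 17881 and 8150 (MII) in KO. All MII libraries lay under all earlier ones, without overlap. The log2 fold change was −3.33 ± 0.45 (adjusted p = 6.98e-12) in WT and −3.67 ± 0.54 (adjusted p = 0.03) in KO, and 9.92% and 7.85% of the GV level remained. As the most abundant member, Lsm3 set the LSM share of all spliceosome reads, which went from 39.8% to 48.1% in GV and GVBD libraries to 15.1% to 16.7% at MII.

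Lsm6 had ERCC-scaled counts of 17002 and 13545 (GV), 16760 and 11885 (GVBD) and 4184 and 2775 (MII) in WT, and of 17207 and 16650 (GV), 25948 and 13311 (GVBD) and 12592 and 10976 (MII) in KO. The MII libraries lay below all GV and GVBD libraries of their genotype in WT and in KO. The change was −2.13 ± 0.48 (adjusted p = 7.93e-05) in WT and −0.52 ± 0.50 (adjusted p = 0.547) in KO, and the interaction of 1.61 ± 0.59 (adjusted p = 0.665) had the smallest unadjusted p among the members. Lsm2 had counts of 763 and 587 (GV), 689 and 740 (GVBD) and 235 and 243 (MII) in WT, and of 1012 and 1115 (GV), 2095 and 1009 (GVBD) and 932 and 504 (MII) in KO. It changed by −1.50 ± 0.54 (adjusted p = 0.0223) in WT and by −0.57 ± 0.67 (adjusted p = 0.631) in KO, and the MII libraries lay below the GV libraries in both genotypes.

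The subunits that set the rings apart were not called. Lsm1, of the cytoplasmic ring, changed by 0.18 ± 0.50 (adjusted p = 0.844) from GV to MII in WT and −0.02 ± 0.58 (adjusted p = 0.987) in KO. Lsm8, of the nuclear ring, had ERCC-scaled counts of 333 and 305 (GV), 299 and 200 (GVBD) and 250 and 143 (MII) in WT, and of 643 and 680 (GV), 544 and 356 (GVBD) and 371 and 256 (MII) in KO. Its WT MII libraries lay under the GV libraries and its log2 fold change was −0.70 ± 0.57 (adjusted p = 0.394) in WT and −1.08 ± 0.70 (adjusted p = 0.363) in KO. Lsm4, Lsm5 and Lsm7 changed by −1.12, −0.60 and −0.69 in WT without a call. Lsm7 reads varied between KO libraries, with 3821 and 15161 at GVBD.

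Of the U1 proteins, the genes Snrpc and Snrpa fell in WT, and neither Snrpa1 nor Snrpb2, of U2, was called. The gene of the third U1 protein, Snrnp70, which the symbol rule did not take, had 247 and 299 reads, before ERCC scaling, in WT GV and 403 and 367 in WT MII, and on the ERCC scale it was not called (−0.52 ± 0.56, adjusted p = 0.547 in WT, −1.46 ± 0.82, adjusted p = 0.297 in KO). Snrpc (ENSMUSG00000024217, chr17:27838150-27851968, plus strand) encodes U1-C, which steadies the pairing of U1 with the start of the intron. It had ERCC-scaled counts of 2213 and 1523 (GV), 1452 and 1562 (GVBD) and 165 and 77.1 (MII) in WT, and of 3195 and 2484 (GV), 3312 and 2810 (GVBD) and 263 and 83.1 (MII) in KO. Counts at MII were below all earlier libraries in both genotypes. The change was −3.95 ± 0.57 (adjusted p = 9.58e-11) in WT and −4.04 ± 0.79 (adjusted p = 0.0377) in KO, which left 6.48% and 6.1% of the GV level.

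Snrpa, for U1-A, which binds a stem loop of U1 RNA, had ERCC-scaled counts of 268 and 275 (GV), 298 and 321 (GVBD) and 92.5 and 55.9 (MII) in WT, and of 526 and 447 (GV), 495 and 575 (GVBD) and 64 and 16.5 (MII) in KO. The MII libraries were again the lowest, at 23 to 116 reads. It changed by −1.87 ± 0.63 (adjusted p = 0.0125) in WT and −3.60 ± 0.93 (adjusted p = 0.0582) in KO. Its exons share 11.0% of their length with a gene on the opposite strand that had a mean of 117 reads.

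The mRNAs of the U2 genes were stored in larger amounts. Snrpa1, for U2-A′, had ERCC-scaled counts of 7809 and 6832 (GV), 6288 and 5245 (GVBD) and 4341 and 3201 (MII) in WT, and of 6210 and 6090 (GV), 7135 and 4928 (GVBD) and 3620 and 3752 (MII) in KO. It changed by −0.96 ± 0.47 (adjusted p = 0.114) in WT and −0.74 ± 0.54 (adjusted p = 0.425) in KO. Snrpb2, for U2-B″, had counts of 38779 and 32920 (GV), 48000 and 26812 (GVBD) and 60550 and 42589 (MII) in WT, and of 46197 and 47454 (GV), 40586 and 35132 (GVBD) and 54692 and 48066 (MII) in KO. At WT MII both libraries lay above both GV libraries, at 0.52 ± 0.43 (adjusted p = 0.396), and in KO the change was 0.13 ± 0.45 (adjusted p = 0.88). By TMM scaling Snrpb2 was called higher in WT (1.45, adjusted p = 0.00741).

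Among the SF3A and SF3B genes, whose products bind the branch site as part of U2, 1 of 9 fell in WT, beside 30.9% of all genes called. This was Sf3b2, at −2.10 ± 0.49 (adjusted p = 0.000134), and in KO none was called, beside 3.28% of all genes. Sf3b1, which encodes the subunit that clamps the branch site and is often mutated in blood cancers, had ERCC-scaled counts of 9808 and 9086 (GV), 11801 and 8130 (GVBD) and 13333 and 8911 (MII) in WT, and of 13214 and 11616 (GV), 12943 and 10453 (GVBD) and 14186 and 8399 (MII) in KO. It changed by 0.24 ± 0.46 (adjusted p = 0.771) in WT and −0.14 ± 0.53 (adjusted p = 0.9) in KO. Sf3a1 had counts of 2970 and 2516 (GV), 4408 and 1811 (GVBD) and 2097 and 992 (MII) in WT, and of 3623 and 3105 (GV), 3374 and 3801 (GVBD) and 1752 and 646 (MII) in KO. The MII libraries lay under the GV libraries in both genotypes without a call, at −0.83 ± 0.49 (adjusted p = 0.201) in WT and −1.49 ± 0.67 (adjusted p = 0.201) in KO.

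Sf3b5, a small subunit of SF3B, had ERCC-scaled counts of 356 and 299 (GV), 363 and 250 (GVBD) and 215 and 123 (MII) in WT, and of 466 and 369 (GV), 464 and 404 (GVBD) and 150 and 93.8 (MII) in KO. The change was −0.95 ± 0.58 (adjusted p = 0.219) in WT and −1.77 ± 0.76 (adjusted p = 0.187) in KO. Sf3b6, given above, changed by −1.07 ± 0.49 (adjusted p = 0.0821) in WT and −0.43 ± 0.54 (adjusted p = 0.655) in KO. Sf3a3, the most abundant of these genes per kilobase, changed by 0.20 ± 0.44 (adjusted p = 0.802) and −0.29 ± 0.57 (adjusted p = 0.786).

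The U2AF heterodimer reads the end of the intron. U2af2, whose product binds its pyrimidine tract, had ERCC-scaled counts of 233 and 412 (GV), 126 and 198 (GVBD) and 152 and 86.8 (MII) in WT, and of 370 and 339 (GV), 257 and 84.8 (GVBD) and 88.1 and 40.8 (MII) in KO. It fell short of a call in WT, at −1.44 ± 0.60 (adjusted p = 0.0514), and in KO, at −2.46 ± 0.83 (adjusted p = 0.108), although MII lay below GV in both. U2af1, whose product binds the terminal AG, had counts of 4173 and 4467 (GV), 3749 and 4803 (GVBD) and 5131 and 2810 (MII) in WT, and of 6085 and 5442 (GV), 7275 and 4768 (GVBD) and 8140 and 3963 (MII) in KO. Its libraries at GV and MII overlapped in both genotypes, and its change was −0.12 ± 0.47 (adjusted p = 0.895) in WT and 0.07 ± 0.58 (adjusted p = 0.956) in KO.

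U2af1l4 (ENSMUSG00000078765, chr7:30563301-30565365, plus strand), a paralog of U2af1, had ERCC-scaled counts of 12266 and 9444 (GV), 6166 and 4964 (GVBD) and 699 and 562 (MII) in WT, and of 11634 and 9853 (GV), 12446 and 10565 (GVBD) and 1660 and 772 (MII) in KO. Its MII libraries were the lowest in both genotypes, at −4.10 ± 0.53 (adjusted p = 7.45e-13) in WT and −3.14 ± 0.64 (adjusted p = 0.0411) in KO. The value cannot be assigned to this gene alone, because 65.6% of its exon length is shared with Gm49396, a gene on the same strand that changed by −4.17 ± 0.58 in WT (adjusted p = 1.71e-11), and 7.19% with Psenen on the opposite strand, which had a mean of 38462 reads and changed by −1.54 ± 0.44 in WT.

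Of 13 PRPF genes, 2 fell in WT, beside 30.9% of all genes called, and in KO none was called, beside 3.28%. Prpf31, for a protein that bridges U4 and the other particles and is mutated in some inherited retinal dystrophies, had ERCC-scaled counts of 1293 and 1159 (GV), 1906 and 1335 (GVBD) and 389 and 171 (MII) in WT, and of 1506 and 1814 (GV), 3519 and 1710 (GVBD) and 423 and 133 (MII) in KO. MII lay under GV and GVBD in both genotypes, at −2.13 ± 0.53 (adjusted p = 0.000371) in WT and −2.58 ± 0.77 (adjusted p = 0.0802) in KO. The exons of Prpf31 share 18.1% of their length with Gm15927 on the opposite strand, which had a mean of 19.6 reads. Prpf38a, which acts in the activation of the spliceosome, fell by 1.88 on the log2 scale in WT (−1.88 ± 0.49 (adjusted p = 0.000747)) and had −2.31 ± 0.62 (adjusted p = 0.0647) in KO.

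Prpf8, the scaffold of the catalytic centre, had ERCC-scaled counts of 1634 and 1808 (GV), 2418 and 1359 (GVBD) and 1110 and 694 (MII) in WT, and of 2966 and 2379 (GV), 2980 and 3020 (GVBD) and 1650 and 494 (MII) in KO. It changed by −0.93 ± 0.50 (adjusted p = 0.15) in WT and −1.32 ± 0.71 (adjusted p = 0.276) in KO. Prpf19, a ubiquitin ligase of the spliceosome, had counts of 242 and 171 (GV), 121 and 83.2 (GVBD) and 230 and 88.7 (MII) in WT, and of 202 and 196 (GV), 104 and 271 (GVBD) and 90.1 and 20.8 (MII) in KO. It had 29 to 288 reads per library and its replicates spread widely, with changes of −0.38 ± 0.60 (adjusted p = 0.712) in WT and −1.85 ± 0.95 (adjusted p = 0.256) in KO. Prpf4b, a kinase of the spliceosome, had counts of 308 and 488 (GV), 703 and 347 (GVBD) and 534 and 250 (MII) in WT, and of 859 and 533 (GV), 681 and 554 (GVBD) and 666 and 307 (MII) in KO. GV and MII overlapped in both genotypes (−0.02 ± 0.54 (adjusted p = 0.983) in WT, −0.52 ± 0.73 (adjusted p = 0.696) in KO).

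Prpf39, which was higher in KO, was not called from GV to MII, at −0.24 ± 0.54 (adjusted p = 0.805) in WT and −0.20 ± 0.69 (adjusted p = 0.885) in KO. Prpf40b, a further gene of this group, had at most 37 reads in a library and stood at −1.21 ± 1.13 in WT without a call.

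SR proteins bind exonic enhancers through RNA recognition motifs and recruit U1 and U2AF through arginine and serine repeats. In WT 3 of 11 SR genes fell, Srsf1, Srsf2 and Srsf6, beside 30.9% of all genes called. In KO 1 of 10 tested fell, Srsf9, beside 3.28%. Srsf1, the founding member, had ERCC-scaled counts of 395 and 529 (GV), 357 and 278 (GVBD) and 207 and 36.1 (MII) in WT, and of 608 and 267 (GV), 232 and 138 (GVBD) and 189 and 61.6 (MII) in KO. The WT MII libraries differed widely from each other, and the change was −1.93 ± 0.58 (adjusted p = 0.00441) in WT and −1.80 ± 0.87 (adjusted p = 0.229) in KO.

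Srsf2, which also helps release paused transcription, had ERCC-scaled counts of 963 and 1110 (GV), 2241 and 758 (GVBD) and 418 and 220 (MII) in WT, and of 1757 and 1176 (GV), 1659 and 1726 (GVBD) and 604 and 231 (MII) in KO. MII lay under GV in both genotypes, at −1.70 ± 0.53 (adjusted p = 0.00577) in WT and −1.81 ± 0.73 (adjusted p = 0.164) in KO. The exons of Srsf2 share 15.6% of their length with Mettl23 and 9.74% with Mfsd11. Both lie on the opposite strand, with means of 328 and 53.9 reads. Srsf3, for the smallest SR protein, had counts of 1121 and 1288 (GV), 2132 and 1350 (GVBD) and 1590 and 961 (MII) in WT, and of 2015 and 1416 (GV), 2628 and 1754 (GVBD) and 1766 and 1304 (MII) in KO. Srsf7, an adaptor for mRNA export, had counts of 1205 and 1120 (GV), 1762 and 919 (GVBD) and 1461 and 1067 (MII) in WT, and of 1225 and 948 (GV), 789 and 889 (GVBD) and 1007 and 1007 (MII) in KO. Neither was called, with changes of 0.08 ± 0.50 (adjusted p = 0.934) and 0.12 ± 0.50 (adjusted p = 0.901) in WT.

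Srsf10, which represses splicing once dephosphorylated, had ERCC-scaled counts of 459 and 460 (GV), 996 and 455 (GVBD) and 688 and 447 (MII) in WT, and of 839 and 518 (GV), 628 and 794 (GVBD) and 923 and 328 (MII) in KO. Its change was 0.30 ± 0.53 (adjusted p = 0.739) in WT and −0.12 ± 0.75 (adjusted p = 0.942) in KO. Srsf9 had 56 and 69 reads in WT GV, 24 and 35 in WT MII, 125 and 101 in KO GV and 8 and 12 in KO MII. The reads of KO were the highest at GV and the lowest at MII, with changes of −2.18 ± 0.92 (adjusted p = 0.0558) in WT and −4.40 ± 1.004 (adjusted p = 0.0469) in KO and an interaction of −2.22 ± 1.08 (adjusted p = 0.912). Srsf6 changed by −1.56 ± 0.63 (adjusted p = 0.0437) in WT, a call that was lost when any 1 of the 4 libraries was left out. Srsf12 had at most 14 reads in a library and was the member left untested in most comparisons.

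The early step from GV to GVBD brought no call. In WT 0 of 55 members passed by edgeR, beside 0.0511% of all genes, with 3 at an unadjusted p under 0.05, beside 6.25%, and DESeq2 called 2, Lsm4 and Lsm5, both lower, beside 1.96%. Lsm4 had ERCC-scaled counts of 918 and 745 at GV and 253 and 197 at GVBD (−1.88 ± 0.43 (adjusted p = 0.265)), and Lsm5 12351 and 10736 and 5427 and 2399 (−1.56 ± 0.46 (adjusted p = 0.428)). The third was U2af1l4, at −0.96 ± 0.36 (adjusted p = 0.623). The GVBD libraries lay below GV without overlap for Lsm4 and Lsm5, and at MII Lsm4 stood at 480 and 286 and Lsm5 at 9166 and 6087. In KO 0 of 55 passed, beside 0.22% of all genes, with 1 at an unadjusted p under 0.05, beside 7.65%. DESeq2 called 0, beside 1.22%. The smallest p-values were those of Srsf1 (−1.24 ± 0.52 (adjusted p = 0.63)), Lsm7 (−1.16 ± 0.54 (adjusted p = 0.691)) and U2af2 (−1.06 ± 0.56 (adjusted p = 0.708)). Genes called from GV to MII, such as Snrpd2, Snrpc and Lsm3, had GVBD values of −0.61 ± 0.38, −0.31 ± 0.38 and 0.25 ± 0.38 against GV in WT, and their MII libraries lay below both GVBD libraries.

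Other genes of the pathway were examined as lists. Of 70 further spliceosome components, 21 fell and 0 rose from GV to MII in WT (median log2 fold change −0.67, beside −1.06 over all genes, of which 30.9% were called) and 3 fell in KO (−1.03, beside −1.17 and 3.28%). The 3 with the lowest values in WT were Zmat5, of the minor spliceosome (−6.17 ± 0.59, adjusted p = 2.06e-22), Bud31 (−4.72 ± 0.51, adjusted p = 9.42e-18) and Txnl4a, of U5 (−3.71 ± 0.55, adjusted p = 5.41e-10). In KO the 3 called were Zmat5 (−4.44 ± 0.82, adjusted p = 0.0347), Bud31 (−4.23 ± 0.62, adjusted p = 0.03) and Ppie (−3.66 ± 0.73, adjusted p = 0.0403). Bud31 received 43240 and 29813 reads in WT GV and 2757 and 2769 in WT MII. Between genotypes 1 of the 70 was called over all stages, Rbmx2, higher in KO (1.28 ± 0.27, adjusted p = 0.0382), with 1672 and 1091 reads in WT GV and 2573 and 2611 in KO GV, and none at a single stage.

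The proteins that build the Sm ring are the SMN complex, which loads it on RNA, and the PRMT5 complex, which methylates Sm proteins. In WT 7 of 11 tested genes fell from GV to MII, with a median of −2.01, beside 30.9% and −1.06 over all genes, and in KO 1 of 11 fell, with a median of −1.93, beside 3.28% and −1.17. The lowest were the SMN complex genes Gemin7 (−5.04 ± 0.59, adjusted p = 1.17e-15 in WT, −5.03 ± 0.85, adjusted p = 0.0312 in KO) and Ddx20 (−3.16 ± 0.74, adjusted p = 0.000175 in WT) and the PRMT5 partner Clns1a (−3.79 ± 0.60, adjusted p = 4.93e-09 in WT). Of 8 kinases that phosphorylate SR proteins 2 fell in WT, Clk4 (−2.28 ± 0.62, adjusted p = 0.00153) and Dyrk1a (−1.58 ± 0.50, adjusted p = 0.00805), with a median of −0.14, beside the same 30.9% and −1.06. Of 26 hnRNP genes, whose products often oppose SR proteins, 6 fell in WT, beside 30.9% of all genes, with a median of −0.54, led by Hnrnpll (−2.61 ± 0.79, adjusted p = 0.00482), Syncrip (−2.21 ± 0.70, adjusted p = 0.00705) and Hnrnpul1 (−1.93 ± 0.68, adjusted p = 0.0184). None of these 3 lists had a call between genotypes, from GV to GVBD or in the interaction. The kinases and hnRNP genes had none from GV to MII in KO, beside 3.28% of all genes. Between genotypes the shares of all genes called were 0.0977% at GV, 2.54% at GVBD, 0.803% at MII and 1.26% over all stages. From GV to GVBD they were 0.0511% in WT and 0.22% in KO, and in the interaction 0%.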

How the data were processed

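RNA of pooled WT and Alkbh5-/- mouse oocytes was sequenced in 12 libraries by a SMART-seq protocol with an ERCC spike-in. This primes on poly(A) tails, so that less RNA and a shorter tail cannot be told apart. The deposited counts are whole reads per gene. For these the authors used Cutadapt 1.9, then HISAT2 2.0.4 against GRCm38 plus ERCC sequences, unique alignments and StringTie 1.3.4d, with versions as in the submitters' processing notes; the study's reporting summary names other versions of Cutadapt and HISAT2. Annotation release, strand use and the counting step are not given in the sources used here. The extraction protocol in the labels describes another, bulk preparation. Amplified reads carry no molecular identifiers.

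Groups are those of the labels. Counts were fitted with edgeR 4.0.16 (R 4.3.3, glmQLFit and glmQLFTest, two-sided), with library sizes in proportion to ERCC counts as the study scaled them and the filterByExpr filter on total counts. The interaction was fitted to the 4 GV and MII groups and the comparison over all stages to 12 libraries with stage as a covariate. The study used DESeq2, tried here as version 1.42.0 among the alternatives, with TMM and median-of-ratios scaling, other filters, ERCC sequences with at least 10 counts, no fold minimum, 1 model for all libraries, a replicate block and fits without each library. Fits were tested on simulated data. Errors are SE for fold changes and SD for levels. Symbols matched 52073 of 56691 identifiers (91.9%), and positions and exon lengths are from GENCODE M21 on GRCm38. Values are given by a rule for 28 members, plus in each comparison up to 5 called members in each direction, or the 3 with the smallest p where none was called, and up to 3 called genes of each further list and direction. Genes named beyond that rule, and the neighbouring genes, were chosen after their values were seen. Members and lists were chosen with earlier results of these data known.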

Additional observations from a re-analysis of the deposited data

Results flagged for a closer look

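Among the 56 genes, 2 moved in opposite directions between genotypes at different stages, with every KO library on 1 side of every WT library at each of those stages. Of the 16622 genes tested at all stages 7.14% did so. The difference between stages was not tested, and neither gene was called at any stage. Srsf9 had a log2 fold change of KO against WT of 1.12 at GV and −1.11 at MII, on 8 to 125 reads per library. Sf3a2 had 1.41 at GVBD and −1.55 at MII, on 7 to 209 reads per library, and 16.1% of its exon length is shared with Plekhj1 on the opposite strand. No group held enough libraries to be tested for outliers.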

How the results depend on the processing

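Of 139 recomputed counts of called members, 92 lay within 1.5 times of the reported count. A count of 0 that stayed 0 was among these, and for several comparisons the reported count was 0. Percentages in brackets below are the share of all tested genes called in the same fit. With no filter on low counts the counts were 3 for KO against WT at GV (2.27%) and 4 for KO against WT over all stages (3.57%). They were 9 for MII against GV in KO (9.32%), and 2 and 1 for GVBD against GV in WT and KO (1.8% and 1.77%). With at least 10 counts in every library they were 3 at GV (1.25%), 10 for MII against GV in KO (17.5%) and 4 over all stages (6.41%). The DESeq2 Wald test gave 4 at GV (3.42%), 3 at GVBD (4.63%), 1 at MII (1.97%) and 4 over all stages (6.16%). It gave 9 for MII against GV in KO (16.3%) and 2 for GVBD against GV in WT (1.96%). With all 12 libraries in one model the counts were 0 at GVBD (0.0668%), 1 at MII (2.07%) and 10 for MII against GV in KO (17.1%). TMM and median-of-ratios scaling each gave 0 at GVBD (0.149% and 0.19%) and 1 over all stages (2.73% and 2.77%). TMM moved the median over all genes from −1.06 to −0.14 for MII against GV in WT and from −1.17 to −0.14 in KO. With the low-count filter on ERCC-scaled library sizes, chosen after seeing the data, 2 members were called for MII against GV in KO (1.17%). Leaving out each library in turn gave 0 to 2 at GV, 0 to 1 at GVBD, 4 to 20 for MII against GV in WT, 1 to 31 in KO, 0 to 2 for GVBD against GV in KO, 0 to 1 for the interaction and 1 to 3 over all stages. The share of all tested genes called moved in these fits too. It ran from 0.236% to 4.35% over all stages, and for MII against GV it is given above with each count. These ranges therefore cannot separate a shift of the members from a shift of all genes. A fit left with 1 library in a group takes that library to vary like the others. With a replicate block the counts were 9 for MII against GV in KO (13.1%) and 4 over all stages (3.06%), and it changed no other count by more than 1.5 times. Libraries of the same number correlated at −0.211 at GV and −0.141 at MII in their deviations from group means and at most 0.121 elsewhere. With 2 pairs a comparison, these values cannot decide whether libraries of the same number were handled together. Blocks with crossed numbers, also added after seeing the data, called 1 member at GV (1.12%) and 0 at MII (0%).

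Of 44 single-gene values recomputed, 4 changed sign, none of them called. Over all members and comparisons 264 of 498 values changed sign in at least 1 setting, none of them called. For MII against GV in WT, Snrpd3 was 0.79 by TMM, 0.84 by median-of-ratios scaling and −0.43 to 0.12 with each library left out, Snrpe was −0.11 to 0.48 and Sf3a3 −0.27 to 0.56. For MII against GV in KO, Lsm6 was 0.68 and 0.71 by TMM and median-of-ratios scaling. The cause was not tested. Genes under about 100 reads, among them Snrpb, Srsf9, Sf3a2 and Srsf12, are limited by depth.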
